A study of Mus musculus with 35 samples.

Results

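Oxidative phosphorylation genes were followed in whole mouse trachea before and after transplantation. The members were taken by symbol, as probe sets annotated to a single gene whose name begins with Nduf (a, b, c, s or v), Uqcr, Sdh (a to d), Cox4 to Cox8 or Atp5. This gave 87 genes of 12393 on the array and 160 probe sets of 22626, and 83 of the genes passed a filter on low values and were tested. They comprised 32 genes of complex I, 4 of complex II, 8 of complex III, 14 of complex IV, 17 of complex V and 8 assembly factors. Cox4i2, Cox6b2, Cox8c and Ndufb1 lay below the filter, with group means of 3.80 to 4.19, 3.51 to 4.54, 3.05 to 3.37 and 3.84 to 4.12 on the log2 scale. The study used 35 Affymetrix arrays in 7 groups of 5: native trachea that had not been transplanted, and tracheal transplants examined after 4, 14 or 25 days in recipients whose major histocompatibility complex (MHC) either matched (isografts) or did not match (allografts). Strain, sex and age were not given in the sources used here, nor was it stated whether the arrays of a group came from separate animals, so p-values measure only the spread between these arrays, which may be technical.

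The mitochondrial respiratory chain passes electrons from NADH through complex I, and from succinate through complex II, to ubiquinone, complex III, cytochrome c and the oxygen-reducing complex IV. The proton gradient that complexes I, III and IV build drives ATP synthase, complex V. All of the subunits studied here are encoded in the nucleus, and some complex IV subunits come in one form found in most tissues and another restricted to heart, skeletal muscle or brown fat. Airway cilia are heavy users of ATP.

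Array medians lay between 5.07 and 5.30, and 51.0% to 54.3% of probe sets were at log2 5 or more. The deposited values were already normalized, which makes arrays alike, so these figures cannot show whether total signal differed. The 3'-minus-5' difference of the Gapdh control probe sets, a sign of RNA quality, ran from 0.20 to 2.97 in native arrays and from 0.49 to 3.41 in grafts. The native tissue held more than airway. Ucp1, the uncoupling protein that defines brown adipocytes, was at 9.75 to 11.67 in the native arrays, and Acta1, skeletal muscle actin, was at 10.10 to 13.44. A pair of allograft arrays stood apart from their groups in the oxidative phosphorylation genes. For each array, the median over the 83 genes was taken of the log2 difference from the native mean. It was 0.44 in day 14 allograft replicate 1 against -0.96 to -0.59 in the other arrays of its group, and 0.55 in day 25 allograft replicate 2 against -1.08 to -0.35. Both arrays had Ucp1 at 13.42, above every native array, and Cidea, a lipid-droplet protein of brown fat, at 12.39 and 12.41. Other brown fat genes were mixed beside the native arrays. Elovl3, which lay below the filter, was at 5.05 and 7.43 (3.03 to 5.46 in native arrays). Dio2, which makes active thyroid hormone, was at 5.45 and 6.05 (7.03 to 8.72 in native arrays). Ppargc1a, a coactivator, was at 5.46 and 5.78, within the native 5.07 to 6.19. Within their own groups the pair had the highest values of each of these genes. Counts and main values for the day 14 and day 25 allografts are therefore given with and without this pair, a choice made after seeing the data. Over all genes the arrays that matched their own group least were others, day 25 isograft replicate 5 (median correlation 0.854) and native replicate 5 (0.894), beside 0.901 and 0.905 for the pair. Without those 2 arrays together the members' counts against native trachea were within 1.5 times of those below.

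Transcripts of the respiratory chain were lower in every kind of graft than in native trachea. In the native arrays the per-array member median lay between -0.12 and 0.25. It lay between -0.97 and -0.65 in day 4 isografts, -1.22 and -0.56 in day 14 isografts, -0.95 and -0.59 in day 25 isografts and -1.17 and -0.77 in day 4 allografts. Every array of these 4 groups was therefore below every native array, whereas each later allograft group held 1 array above all native ones.

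**Figure D1:**
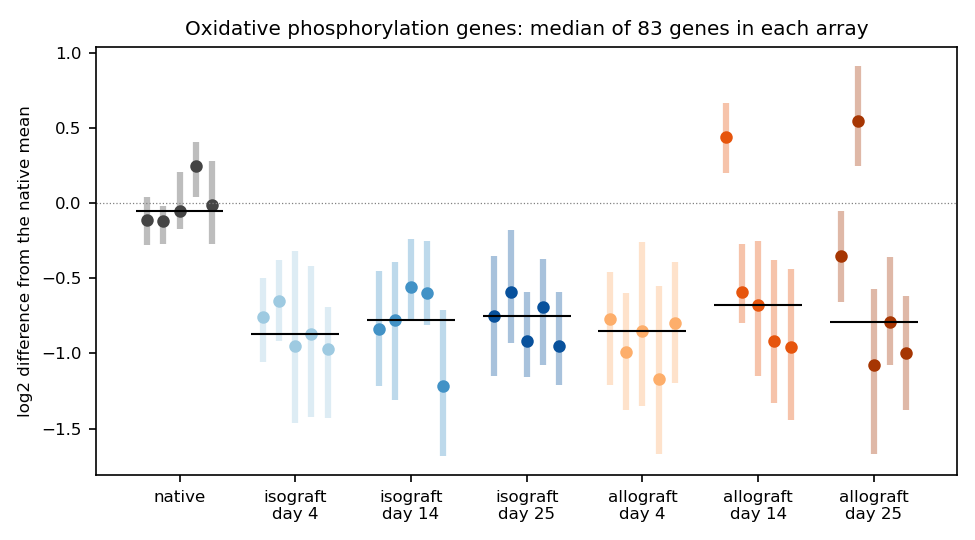
Oxidative phosphorylation genes in each of the 35 arrays, by group, as log2 difference from the native mean; the dot is the median of 83 genes, the thick bar the quartiles over genes (not an error between arrays), and the black line the median of the group's 5 arrays. All isograft arrays and the day 4 allograft arrays sit at -0.56 or lower, and 1 day 14 and 1 day 25 allograft array sit at 0.44 and 0.55.

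In limma's test, fitted over all genes with Benjamini-Hochberg adjustment and called at an adjusted p under 0.05, 55 of the 83 genes fell and 0 rose in day 4 isografts against native trachea, and 58 were at an unadjusted p under 0.05 in either direction. Over all 8313 genes tested, 26.2% were called lower and 20.2% higher in that comparison. The median difference of the members was -0.82 on the log2 scale, beside -0.08 over all genes. In 33 members the called difference was 2-fold or more, and in 52 all 5 graft arrays lay below all 5 native arrays, a pattern found in 17.5% of all genes.

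The counts were 46 lower and 0 higher in day 14 isografts, with 16.3% of all genes lower and 12.1% higher, and 39 lower and 0 higher in day 25 isografts, with 7.36% and 9.89%. At an unadjusted p under 0.05 limma gave 57 and 59 members. The members' medians were -0.78 and -0.79, beside -0.09 and 0.01 over all genes. Arrays did not overlap, with the graft lower, for 42 members at day 14 (8.18% of all genes) and 46 at day 25 (5.62%). The day 25 isograft count was 15 without native replicate 4, 24 without native replicate 1 and 25 without day 25 isograft replicate 3.

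In day 4 allografts 55 members fell and 0 rose (25.1% and 22% of all genes), with a median of -0.90 beside -0.04 over all genes, and the arrays of 54 members did not overlap (16.1%). In that comparison 59 members were at an unadjusted p under 0.05. In day 14 allografts 30 fell and 1 rose (26.5% and 21.5%), with a median of -0.56 beside -0.10, and in day 25 allografts 23 fell and 1 rose (19.7% and 18.4%), with a median of -0.49 beside -0.06. At those later times the arrays of only 4 members (14.9% of all genes) and 2 members (10.7%) did not overlap. Without the pair of arrays described above, 48 members fell at day 14 (27.6% of all genes) with a median of -0.74, and 59 fell at day 25 (21.8%) with a median of -0.81. Total calls, 31 and 24 with all arrays, were 15 at day 14 and 13 at day 25 without native replicate 4, 16 to 18 at day 14 without allograft replicate 3, 4 or 5, and 8 at day 25 without allograft replicate 3. The 5 native arrays serve all 6 comparisons, which are given side by side for that reason.

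Centring each array on 8 reference genes moved the median of all probe sets by -0.33 in day 4 isografts and -0.32 in day 4 allografts against native, and the members' medians became -1.14 and -1.22, lower than that shift. Centring on the reference genes or on the array median, or repeating the quantile normalization, left the median of the members below 0 in all 6 comparisons with native trachea.

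**Figure D2:**
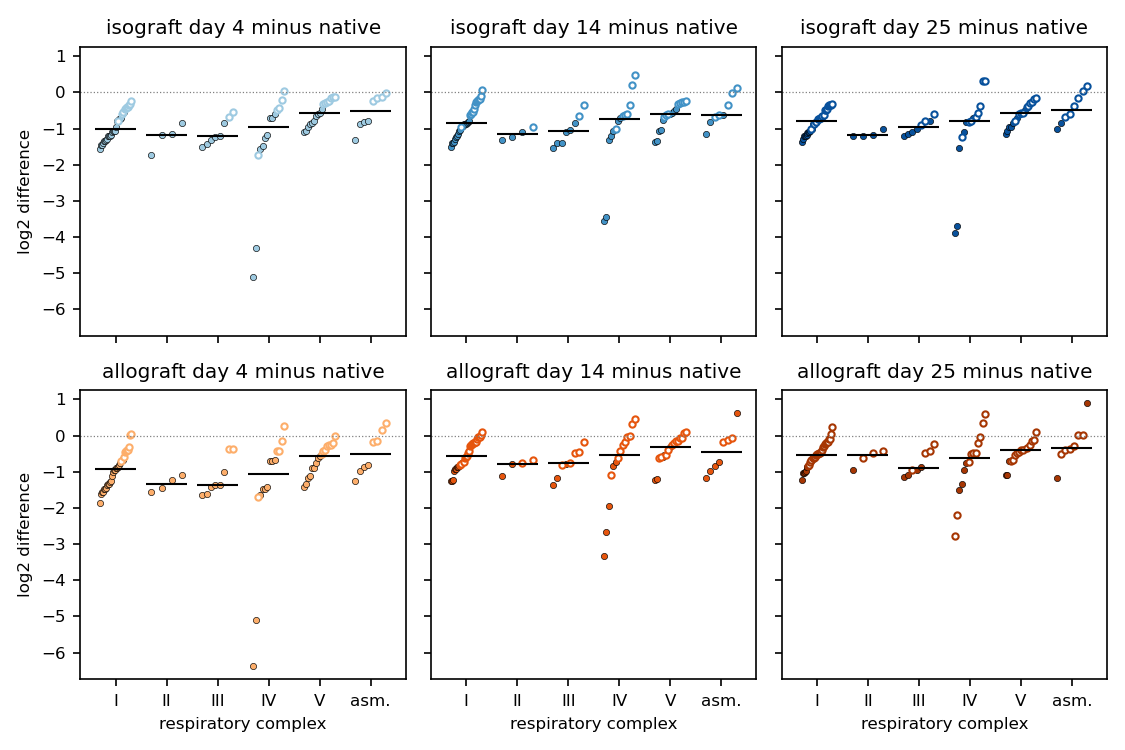
Log2 difference of each of the 83 genes from native trachea in the 6 graft groups, by complex (I to V) and assembly factors (asm.); filled points were called by limma at an adjusted p under 0.05, open points were not, and black lines are medians. In the 2 day 4 groups complexes II and III have the lowest medians, and the separate points far below the others in complex IV are Cox7a1 and Cox8b.

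Start-site sequences are shown for 4 genes that the results below turn on: Cox7a1 and Cox8b, which had the widest fitted differences, and Uqcrc1 and Ndufs3, core subunits of complexes III and I that were lower in each graft group. The genes were chosen after their values were seen. Each window runs from 250 bases before to 50 after the RefSeq start (GRCm38.p6), 5' to 3' on the gene's strand: Cox7a1 at chr7:30183921-30184220 (plus strand), Cox8b at chr7:140900397-140900696 (minus), Ndufs3 at chr2:90904672-90904971 (minus) and Uqcrc1 at chr9:108936398-108936697 (plus). Capitals mark the motifs searched on both strands, which were TGCGCA (the core of the site known for the transcription factor NRF1, and its own reverse complement), CCGGAAG (a core of ETS-family sites, which includes GABP) and TATAAA (the TATA box).
Cox7a1: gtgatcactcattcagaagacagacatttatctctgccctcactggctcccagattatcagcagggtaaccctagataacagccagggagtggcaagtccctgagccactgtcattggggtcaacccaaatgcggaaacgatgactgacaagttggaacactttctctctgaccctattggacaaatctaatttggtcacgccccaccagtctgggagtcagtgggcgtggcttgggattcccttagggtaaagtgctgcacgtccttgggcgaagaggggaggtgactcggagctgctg
Cox8b: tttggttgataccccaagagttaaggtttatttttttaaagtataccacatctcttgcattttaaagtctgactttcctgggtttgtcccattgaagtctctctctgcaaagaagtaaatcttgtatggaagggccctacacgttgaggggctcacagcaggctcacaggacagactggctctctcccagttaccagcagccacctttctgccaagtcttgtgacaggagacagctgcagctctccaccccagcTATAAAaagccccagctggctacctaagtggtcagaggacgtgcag
Ndufs3: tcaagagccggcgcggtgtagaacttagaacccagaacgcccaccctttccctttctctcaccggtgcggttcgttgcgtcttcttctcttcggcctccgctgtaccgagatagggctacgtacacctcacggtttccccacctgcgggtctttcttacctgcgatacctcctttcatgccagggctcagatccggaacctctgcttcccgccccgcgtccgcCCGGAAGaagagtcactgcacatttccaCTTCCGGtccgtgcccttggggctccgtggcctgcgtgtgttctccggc
Uqcrc1: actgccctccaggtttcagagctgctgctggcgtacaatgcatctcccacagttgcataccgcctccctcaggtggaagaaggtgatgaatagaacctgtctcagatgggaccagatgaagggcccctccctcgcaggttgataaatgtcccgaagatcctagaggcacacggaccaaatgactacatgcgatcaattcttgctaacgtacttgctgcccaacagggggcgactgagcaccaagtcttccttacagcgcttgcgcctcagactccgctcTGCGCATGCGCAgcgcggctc
The Cox7a1 window held none of the 3 motifs, Cox8b held 1 TATAAA, Ndufs3 held CCGGAAG at 2 places, 1 on each strand, and Uqcrc1 held 2 TGCGCA side by side. Windows were matched for 73 of the 87 members. TGCGCA was in 18 of them (24.7%, beside 8.79% of 27025 genes), CCGGAAG in 20 (27.4%, beside 9.93%) and TATAAA in 7 (9.59%, beside 15.7%). A match describes letters in these windows only.

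The counts for parts of the complexes and for marker lists given from here on are to be read beside the shares of all genes called lower. These shares were 26.2%, 16.3% and 7.36% in isografts at days 4, 14 and 25. In allografts they were 25.1%, 26.5% and 19.7%, or 27.6% and 21.8% at the later times without the pair. Complex I is the NADH dehydrogenase, and its catalytic core carries the flavin and iron-sulfur centres. All 6 core genes tested fell in day 4 isografts, with a median difference of -1.20, and all 6 fell in day 4 allografts, with a median of -1.17. In the later isografts 4 of the 6 fell at each time, and in day 14 and day 25 allografts 3 and 2 did, or all 6 at both times without the pair of arrays. Ndufs3, a core subunit that forms part of the arm reaching into the matrix, was at 10.08, 9.94, 10.07, 10.53 and 10.42 in the native arrays. It was at 9.03, 9.31, 8.61, 8.58 and 8.77 in day 4 isografts, at 8.97, 8.92, 9.49, 9.75 and 8.70 at day 14, and at 9.16, 9.42, 9.07, 9.22 and 9.16 at day 25. In allografts it was at 8.86, 8.71, 8.54, 8.21 and 8.98 at day 4, 10.37, 9.46, 8.89, 8.68 and 8.78 at day 14, and 9.74, 10.73, 8.46, 9.18 and 8.60 at day 25. All isograft and day 4 allograft arrays lay below the native arrays, and the overlap at later times came from allograft replicate 1 at day 14 and allograft replicate 2 at day 25. Ndufs3 fell 2.55-fold in day 4 isografts (log2 -1.35, SE 0.31, limma adjusted p = 0.000809) and 2.92-fold in day 4 allografts (log2 -1.55, SE 0.31, adjusted p = 0.000163). Its smallest called difference, in day 25 allografts, was -0.87 (adjusted p = 0.0291).

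Ndufs1, the largest core subunit, and Ndufv2, which carries an iron-sulfur cluster next to the flavin subunit, were called in the 3 isograft groups. Ndufs1 fell by 1.21, 1.22 and 1.22 at days 4, 14 and 25 (SE 0.38, limma adjusted p = 0.0102, 0.0165 and 0.026). Ndufv2 fell by 1.34, 1.38 and 1.36 (SE 0.39, adjusted p = 0.00585, 0.0091 and 0.016). Ndufv1, the flavin subunit that takes electrons from NADH, was at -1.06 in day 4 isografts and -1.01 in day 4 allografts (SE 0.42, adjusted p = 0.0391 and 0.0487), and at -1.02 to -0.61, not called, at other times. A second Ndufv1 probe set ran from -1.62 to -1.06 and was called in every group other than day 25 allografts, so the times at which Ndufv1 was called depend on the probe set.

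The 26 accessory subunits of complex I tested, which surround the core, gave 16 falls in day 4 isografts and 17 in day 4 allografts, with medians of -0.77 and -0.84. At days 14 and 25, 14 and 11 of them fell in isografts and 8 and 6 in allografts, or 14 and 19 without the pair. The allograft counts with all arrays were near the shares of all genes called lower, 26.5% and 19.7%. Ndufb2, a small membrane-arm subunit, was at 10.57, 10.50, 10.46, 10.88 and 10.57 in native arrays and at 8.56 to 10.37 in the 30 grafts. All graft arrays therefore lay below all native arrays. Ndufb2 fell by 1.33 in day 4 isografts (SE 0.22, limma adjusted p = 1.84e-05), by 1.56 in day 4 allografts (adjusted p = 1.32e-06) and by 1.05 in day 25 allografts (adjusted p = 0.000383). Ndufb9, another membrane-arm subunit, had the largest called fall of complex I in both day 4 groups, by 1.56 in isografts (SE 0.36, adjusted p = 0.000776) and 1.86 in allografts (adjusted p = 0.000101). Ndufab1, the mitochondrial acyl carrier protein, fell by 1.51 in day 14 isografts (SE 0.35, adjusted p = 0.0023) and by 1.23 in day 25 allografts (adjusted p = 0.00653). Ndufa9, which sits where the peripheral arm meets the membrane, fell by 1.07 to 1.29 in the 3 isograft groups and had -0.63 in day 25 allografts (SE 0.33, adjusted p = 0.144), where it was at -0.97 without the pair (adjusted p = 0.00169). Ndufc2 and Ndufa12 had no call by the probe sets used, at -0.33 to 0.24 and -0.50 to 0.01 over the 6 groups. Another probe set of each was called lower in 3 groups, with Ndufc2 at -1.01 and Ndufa12 at -0.70 in day 4 isografts, where the Ndufa12 value was not called.

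Complex II, succinate dehydrogenase, also works in the citric acid cycle. All 4 of its genes fell in day 4 isografts, day 25 isografts and day 4 allografts, with medians of -1.17, -1.18 and -1.34. In day 14 isografts 3 fell, and in day 14 and day 25 allografts 2 and 1 did, or all 4 at both times without the pair. The day 25 allograft count with all arrays was near the 19.7% of all genes called lower. Sdha, the flavin subunit that oxidises succinate, was at 10.45, 10.70, 11.08, 10.68 and 10.97 in native arrays. In day 4 isografts it was at 9.05, 9.56, 8.78, 8.95 and 8.95, and in day 4 allografts at 9.16, 9.06, 9.32, 9.10 and 9.48. The day 4 grafts were below all native arrays by a clear gap. Day 14 and day 25 allografts ran from 9.29 to 11.43 and from 9.41 to 12.40, spanning the native range. Sdha fell by 1.72 (3.29-fold, SE 0.40, limma adjusted p = 0.000951) in day 4 isografts and by 1.55 (adjusted p = 0.00224) in day 4 allografts. It was not called in day 14 isografts (-0.96, adjusted p = 0.0711), day 14 allografts (-0.76, adjusted p = 0.119) or day 25 allografts (-0.42, 95% interval -1.24 to 0.40, adjusted p = 0.435). Without the pair it was called in both later allograft groups, at -1.12 (SE 0.28, adjusted p = 0.00158) and -0.93 (adjusted p = 0.00876). A second Sdha probe set was called in day 14 isografts too, at -1.27.

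Sdhb, the iron-sulfur subunit, fell by 1.19, 1.1 and 1.0 in isografts at days 4, 14 and 25 (SE 0.32, limma adjusted p = 0.00347, 0.0118 and 0.0327), and had -0.68 and -0.47 in day 14 and day 25 allografts (adjusted p = 0.0834 and 0.265). Without the pair these were -1.0 and -0.85, both called (SE 0.22, adjusted p = 0.000493 and 0.00292). Sdhc and Sdhd anchor the enzyme in the membrane. Sdhc was at 9.99, 9.84, 10.31, 10.51 and 9.90 in native arrays, and at 8.97, 8.94, 9.23, 8.86 and 8.57 in day 25 isografts, with no overlap. In day 25 allografts it was at 9.44, 10.15, 8.47, 8.71 and 9.04, where replicate 2 reached the native range. Sdhc fell by 1.16 to 1.45 in isografts and day 4 allografts, and by 1.12 and 0.95 in day 14 and day 25 allografts (SE 0.33, adjusted p = 0.00625 and 0.0241). Sdhd fell by 1.23 in day 14 isografts (SE 0.32, adjusted p = 0.00587) and had -0.61 in day 25 allografts (adjusted p = 0.144), or -0.93 without the pair (adjusted p = 0.0034).

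Complex III, the cytochrome bc1 complex, had the lowest median of the 5 complexes in day 4 isografts (-1.22), day 4 allografts (-1.37) and day 25 allografts (-0.91). Of its 8 genes, 6, 6 and 5 fell in isografts at days 4, 14 and 25, and 6, 3 and 4 in allografts, the later counts being 6 and 7 without the pair. Uqcrc1, a core subunit facing the matrix, was at 10.12, 9.96, 9.78, 10.37 and 10.61 in native arrays. Day 14 isografts were at 8.33, 8.22, 9.17, 9.46 and 7.91, and day 14 allografts at 10.43, 8.93, 8.73, 7.87 and 8.06. The isografts lay below the native arrays, and of the allografts replicate 1 alone reached them. Uqcrc1 fell by 1.44, 1.55 and 1.20 in isografts (SE 0.42, limma adjusted p = 0.00669, 0.00757 and 0.0491) and by 1.65, 1.36 and 1.16 in allografts (adjusted p = 0.00198, 0.00916 and 0.0325) at days 4, 14 and 25.

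Uqcrfs1, the Rieske iron-sulfur protein that takes electrons from ubiquinol, was at 10.84, 10.87, 11.02, 11.07 and 11.35 in native arrays and at 9.46, 9.43, 9.36, 9.11 and 9.62 in day 4 allografts. These groups were well separated, a 3.10-fold difference (log2 -1.63, SE 0.37, limma adjusted p = 0.000569), and the day 4 isograft difference was -1.5 (adjusted p = 0.00146). Uqcrc2, the other core subunit, depended on the probe set. The one used was at -0.79 to -0.38 (SE 0.43) with no call, and a second, with a lower mean of 8.74, was called in all 6 comparisons at -1.67 to -1.14. Among the small subunits Uqcrh, the hinge protein, fell by 0.85 in day 4 isografts (SE 0.21, adjusted p = 0.00155) and by 1.02 in day 4 allografts (adjusted p = 0.000199). Uqcrq fell by 1.40 in day 14 isografts and 1.09 in day 25 allografts (SE 0.36, adjusted p = 0.00542 and 0.0194). For Uqcr10 the probe set with the highest mean (8.36) fell by 1.41, 0.78 and 0.87 in allografts at days 4, 14 and 25. Another, with a mean of 4.00, was called the other way, at 1.18, 3.46 and 3.23. A further probe set, with a mean of 5.24, was also called higher at days 14 and 25, at 0.78 and 0.94 (limma adjusted p = 0.0272 and 0.0113). At day 4 that probe set was at -0.17 and was not called. With its probe sets averaged, Uqcr10 was at 1.15 in day 14 allografts and 1.1 in day 25 allografts (limma adjusted p = 0.000904 and 0.00189). The direction of Uqcr10 in the later allografts therefore depends on the probe set. Of the 41 members with more than 1 tested probe set it alone had opposite calls. All probe sets of a gene gave the same call for 20, 10 and 20 of the 41 in isografts at days 4, 14 and 25, and for 18, 23 and 23 in allografts. Of the 83 members, 22 were called in none of the 6 comparisons, 15 of these had another tested probe set, and in 15 of 15 another probe set was called in at least 1 comparison.

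Complex IV, cytochrome c oxidase, held the widest fitted differences of all the members, in forms restricted to certain tissues. Several graft values of these forms are about 3, near the background of the authors' model, so their folds depend on that model and give no order among genes. Cox7a1, the form of subunit VIIa found in heart, skeletal muscle and brown fat, was at 8.10, 7.92, 7.94, 9.55 and 9.10 in native arrays. Isografts were at 3.50, 6.63, 3.86, 3.64 and 3.53 at day 4, 4.81, 4.85, 7.26, 4.63 and 3.28 at day 14, and 4.46, 6.43, 3.41, 5.32 and 3.59 at day 25. Allografts were at 3.26, 3.25, 3.52, 3.82 and 3.23 at day 4, 9.96, 7.42, 3.45, 4.81 and 3.58 at day 14, and 8.36, 9.70, 3.51, 6.28 and 3.70 at day 25. The isografts and the day 4 allografts lay wholly below native trachea, and the later allografts ran from near background to above the native arrays. Cox7a1 fell by 4.29 (19.6-fold, 95% interval of the log2 difference -6.41 to -2.17, SE 1.04, limma adjusted p = 0.00132) in day 4 isografts and by 5.11 (34.5-fold, adjusted p = 0.00019) in day 4 allografts. It fell by 3.56 and 3.88 in the later isografts and by 2.68 in day 14 allografts (adjusted p = 0.0118, 0.0108 and 0.035), and was at -2.21 in day 25 allografts (adjusted p = 0.0953).

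Cox8b, the form of subunit VIII found in heart, skeletal muscle and brown fat, had its widest difference in day 4 allografts. It was at 10.22, 9.34, 8.75, 10.73 and 9.07 in native arrays, 3.79, 8.23, 3.09, 3.98 and 3.52 in day 4 isografts, and 3.84, 3.50, 3.93, 2.65 and 2.33 in day 4 allografts. Day 14 allografts were at 11.19, 8.30, 3.38, 5.55 and 3.06, and day 25 allografts at 8.35, 10.45, 3.94, 7.13 and 4.34. Within each later allograft group the spread between arrays was wider than the mean difference between day 4 allografts and native trachea. Cox8b fell by 6.37 (82.9-fold, SE 1.21, limma adjusted p = 8.48e-05) in day 4 allografts, by 5.10 (34.2-fold, adjusted p = 0.0011) in day 4 isografts and by 3.33 (adjusted p = 0.0253) in day 14 allografts. In day 25 allografts it was at -2.78 (adjusted p = 0.0718). Without the pair of arrays, the day 14 and day 25 allograft differences were -4.55 and -3.68 for Cox8b and -3.71 and -3.06 for Cox7a1, all called.

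Cox6a2, the heart and skeletal muscle form of subunit VIa, varied more among the native arrays, at 4.89, 4.72, 6.20, 7.10 and 10.06. Day 14 allografts were at 4.38 to 5.07, and day 25 allografts at 10.21, 4.38, 4.64, 4.78 and 5.36. The high day 25 array was replicate 1, which also had Acta1 at 13.10 and Ucp1 at 4.18. Cox6a2 was called in day 14 allografts alone, at -1.94 (SE 0.80, limma adjusted p = 0.0473), and at -1.87 without the pair (adjusted p = 0.0699).

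The widespread partners of these forms had smaller differences from native trachea, though no test compared the forms. Cox7a2 fell by 0.59 in day 4 isografts and 0.71 in day 4 allografts (SE 0.22, limma adjusted p = 0.0262 and 0.00845). Cox6a1 fell by 0.71 in both day 4 groups (SE 0.28, adjusted p = 0.0374 and 0.0364). Cox8a fell by 1.49 and 1.64 there (SE 0.31, adjusted p = 0.000266 and 7.41e-05) and by 1.35 in day 25 allografts (adjusted p = 0.000872). Of the 10 widespread genes tested, 7, 5 and 4 fell in isografts at days 4, 14 and 25, and 7, 2 and 4 in allografts, with medians between -0.75 and -0.34. Without the pair 5 and 8 fell in the later allografts. The day 14 allograft count with all arrays was below the 26.5% of all genes called lower. Leaving out Cox6a2, Cox7a1 and Cox8b, 53, 44 and 37 of the other 80 members fell in isografts and 53, 27 and 23 in allografts.

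**Figure D3:**
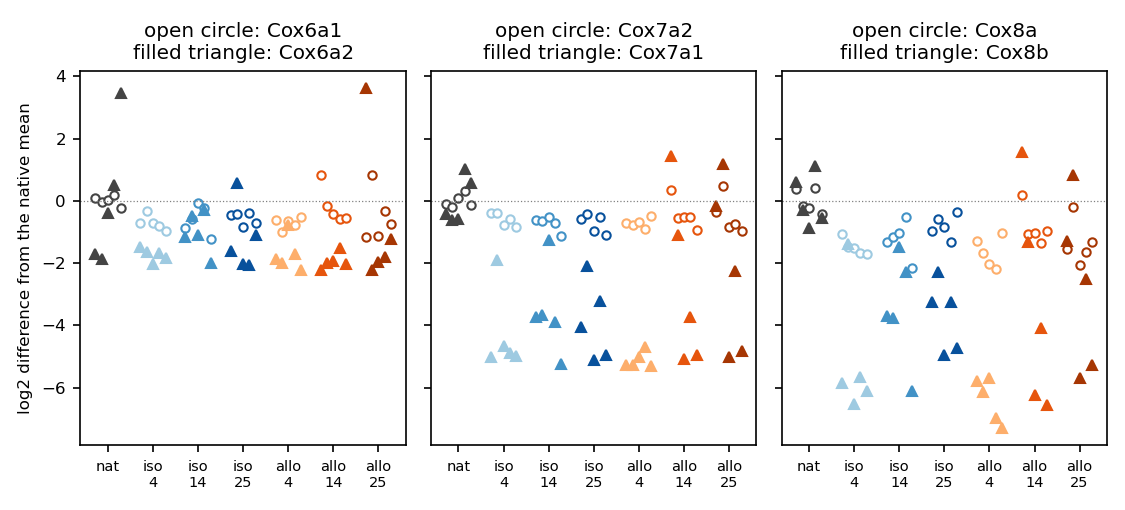
Log2 difference from the native mean in each array for 3 pairs of complex IV subunit forms, with the widespread form as an open circle (Cox6a1, Cox7a2, Cox8a) and the tissue-restricted form as a filled triangle (Cox6a2, Cox7a1, Cox8b). The triangles of Cox7a1 and Cox8b spread down to differences of several log2 units in grafts, while the circles stay nearer to 0.

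Among the other complex IV genes, Cox4i1, the widespread form of subunit IV, fell by 1.19 in day 4 isografts and 1.43 in day 4 allografts (SE 0.28, limma adjusted p = 0.00105 and 0.000128). Ndufa4, first assigned to complex I and now counted with complex IV, fell by 1.56 in day 4 isografts and 1.51 in day 25 allografts (SE 0.49, adjusted p = 0.00983 and 0.0152). Cox6b1 fell by 0.71 in day 4 isografts and 0.83 in day 25 isografts (SE 0.28, adjusted p = 0.0388 and 0.0419). Cox5a and Cox5b, which line the matrix face, were not called by the probe sets used. These ran from -0.69 in day 25 isografts to -0.02 in day 14 allografts for Cox5a (SE 0.28), and from -0.44 to -0.04 for Cox5b (SE 0.24). Another Cox5a probe set was at -1.41 to -0.76 and called in 5 of 6 groups, and another of Cox5b was at -1.08 to -0.39 and called in 3. The probe set of Cox7c was dim, with group means of 4.60 to 5.20, and its differences of 0.03 to 0.60 were not called.

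Complex V is given here by the parts of the enzyme, between which no test was made. In its F1 head, where ATP is made, 5, 3 and 2 of 5 genes fell in isografts at days 4, 14 and 25, and 4, 3 and 3 in allografts, the later counts being 4 and 3 without the pair. Atp5b, the catalytic beta subunit, was at 12.50, 12.22, 12.15, 12.81 and 12.77 in native arrays. Day 14 isografts were at 11.18, 10.91, 11.39, 11.44 and 10.73, and day 14 allografts at 12.67, 11.45, 11.00, 10.63 and 10.76. The isografts were all below native trachea, as were the allografts other than replicate 1. Atp5b fell by 1.36 in day 14 isografts (2.56-fold, SE 0.34, limma adjusted p = 0.0044), by 1.41 in day 4 allografts (adjusted p = 0.00124) and by 1.09 in day 25 allografts (adjusted p = 0.0137). Atp5a1, the alpha subunit, fell by 0.97 to 1.35 across the 6 groups (SE 0.32). Another of its probe sets, with a mean of 6.81, pointed the other way at 0.78 to 1.34 and was not called. Atp5c1, the central stalk subunit gamma, fell by 0.59 in day 4 and day 14 isografts and day 14 allografts (SE 0.22, adjusted p = 0.0307, 0.0429 and 0.0297).

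The c ring, which turns as protons pass, showed small differences. Atp5g1 and Atp5g2 were not called in any of the 6 comparisons, with differences of -0.68 to -0.12. Atp5g1 was at 8.18, 8.15, 8.41, 8.55 and 9.44 in native arrays and at 9.08, 8.21, 8.63, 8.12 and 8.08 in day 4 isografts, which overlapped throughout (-0.12, SE 0.38, limma adjusted p = 0.818). Atp5g3 fell by 0.53 in day 14 allografts (SE 0.14, adjusted p = 0.0032) and 0.36 in day 25 allografts (adjusted p = 0.044), the latter not called without the pair. Of the peripheral stalk, which holds the head still, Atp5o fell by 1.15 in day 25 isografts (SE 0.31, adjusted p = 0.0113), while the probe sets used for Atp5h and Atp5pb ran from -0.38 to 0.11 and were not called. A second probe set of Atp5h was at -1.13 to -0.54 and called in 5 of 6 groups, and a second of Atp5pb was at -0.89 to -0.40 and called in 3. Of 5 small membrane subunits, 3, 4 and 4 fell in isografts and 4, 0 and 0 in allografts, or 1 and 4 in the later allografts without the pair.

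Assembly factors help build the complexes and are not part of the finished enzymes. Of 8 tested, 4, 3 and 2 fell in isografts at days 4, 14 and 25, and 4, 4 and 1 in allografts, the later counts being 4 and 5 without the pair. The day 25 allograft count with all arrays was below the 19.7% of all genes called lower. Ndufaf1, a complex I assembly factor, fell by 0.99 in day 14 allografts (SE 0.23, limma adjusted p = 0.000664). Ndufaf5, an enzyme that modifies a complex I core subunit, fell by 1.14 in day 14 isografts (SE 0.22, adjusted p = 0.000388). Sdhaf4, which helps assemble complex II, was the member called higher than native trachea, by 0.61 in day 14 allografts (SE 0.25, adjusted p = 0.0471) and 0.89 in day 25 allografts (adjusted p = 0.00609). The day 14 call was lost without the pair (0.59, adjusted p = 0.0626), with array weights (0.36, adjusted p = 0.18), with reference-gene centring (0.54, adjusted p = 0.119) and without any of 7 single arrays, among other alternatives, native replicate 1 giving the lowest value (0.43, adjusted p = 0.176). The day 25 difference was 0.73 without the pair (adjusted p = 0.0269), and its call was lost with array weights (0.57, adjusted p = 0.0601) and with only the groups compared in the fit (adjusted p = 0.0612).

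Markers of some cell types fell where these genes fell, and markers of others did not. Because the tissue was measured whole, fewer cells of a type and less RNA per cell cannot be told apart. Of 4 brown adipocyte markers tested, 3, 4 and 2 fell in isografts at days 4, 14 and 25, and 3, 2 and 4 in allografts, with medians between -4.37 and -3.13. Without the pair 4 and 4 fell in the later allografts. The mean log2 level of the list was 7.04 to 8.45 in native arrays, 4.25 to 4.76 in day 4 allografts, and 3.27 to 8.35 and 3.52 to 9.02 in day 14 and day 25 allografts. Ucp1 was at 3.69 to 4.49 in day 4 allografts. In day 4 isografts it was at 4.13, 10.07, 4.65, 4.48 and 3.74, and the array at 10.07 was the one with the highest Cox7a1, Cox8b and member median of its group. In 5 of the 6 graft groups the array highest in Ucp1 was also highest in the member median. The array highest in the white adipocyte list was highest in the member median in each graft group, so this trait was not particular to Ucp1. Day 4 isograft replicate 2, with Ucp1 at 10.07, and day 14 allograft replicate 2, with Ucp1 at 10.16, lay within the native range of Ucp1 (9.75 to 11.67), and their member medians of -0.65 and -0.59 were below every native array. Of 17 skeletal muscle markers, 12, 0 and 0 fell in isografts and 13, 16 and 5 in allografts, the later counts being 16 and 1 without the pair. In 2 of 6 groups the array highest in that list was highest in the member median. In day 14 isografts the members fell with 0 of 17 skeletal muscle markers called, and the level of that list was 4.81 to 8.45 beside 6.87 to 11.62 in native arrays.

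Markers of other tissues that lie around the airway were read too. The mean log2 level of the thyroid and parathyroid list was 8.95 to 9.62 in native arrays and at most 8.58 in any graft array. Such list levels average all the listed genes on the array, including those below the filter. Of the 2 markers tested, 2, 1 and 0 fell in isografts, and 2 of 2 fell in each allograft group. White adipocyte markers fell in 7 of 7 in both day 4 groups and in 0 of 7 at later times. Without the pair, 3 and 0 of 7 fell in day 14 and day 25 allografts. List means were 5.89 and 5.64 in day 4 isografts and allografts beside 8.81 in native trachea. Smooth muscle markers fell in 5, 6 and 2 of 6 in isografts and in 5, 6 and 6 in allografts. The mean level of the smooth muscle list was 5.85 to 7.59 in the graft groups beside 8.81 in native trachea. Cartilage markers fell in 6, 1 and 1 of 12 in isografts and in 4, 10 and 0 in allografts. Their later allograft counts were 7 and 0 without the pair. General and basal epithelium markers fell in 4, 0 and 0 of 10 in isografts and in 4, 8 and 10 in allografts. Leaving out the pair did not change the later allograft counts of the thyroid and parathyroid, smooth muscle and epithelium lists.

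**Figure D4:**
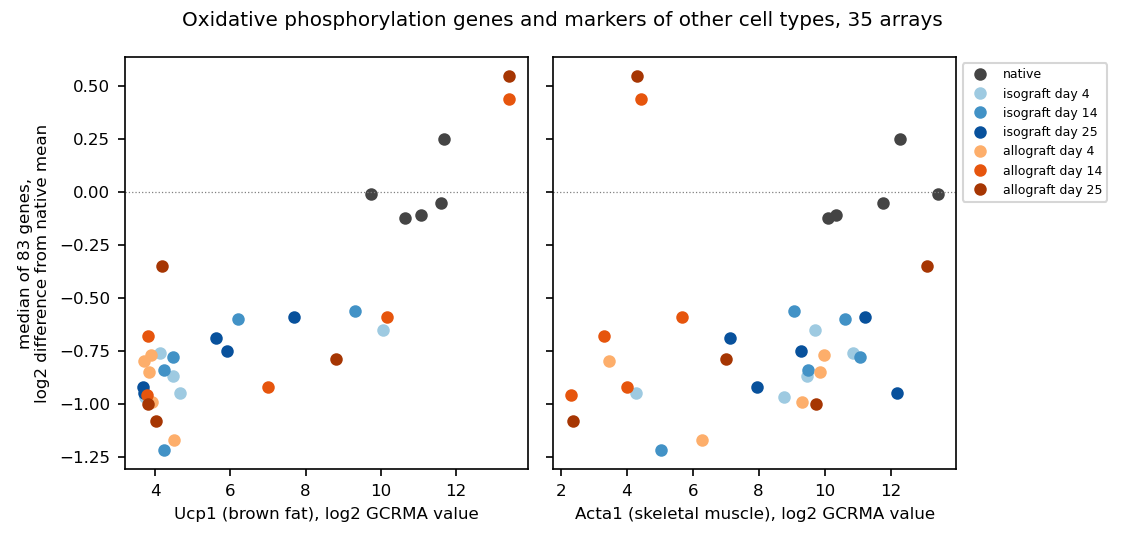
Median log2 difference of the 83 oxidative phosphorylation genes from the native mean (vertical axis) against the log2 value of Ucp1 and of Acta1 (horizontal axes) in each of the 35 arrays, coloured by group. The arrays with Ucp1 at 13.42 are the day 14 and day 25 allograft arrays with member medians of 0.44 and 0.55, and most other graft arrays lie low on both axes of the Ucp1 panel.

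Ciliated epithelium markers, genes of motile cilia, fell in 5, 0 and 0 of 5 in isografts and in 5 of 5 in each allograft group. Secretory epithelium markers fell in 10, 4 and 3 of 10 in isografts and in 10 of 10 in each allograft group. Leukocyte markers rose in 8 of 8 in each graft group, with medians of 2.07 to 3.55. In day 14 and day 25 isografts 46 and 39 members fell while the ciliated list was at 7.22 to 8.94 and 6.69 to 8.63, beside 6.76 to 8.56 in native arrays. The part of these cell types in the lower levels of the oxidative phosphorylation genes was not tested.

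Other mitochondrial genes were read from lists of related pathways, with the later allograft counts also given without the pair. Of all genes tested, 26.2%, 16.3% and 7.36% were called lower in isografts at days 4, 14 and 25. In allografts the shares were 25.1%, 26.5% and 19.7%, or 27.6% and 21.8% at the later times without the pair. Of 18 genes of the citric acid cycle and pyruvate dehydrogenase, which supply the chain with electrons, 16, 15 and 13 fell in isografts and 16, 13 and 6 in allografts (16 and 17 without the pair), with medians of -1.74 to -0.95. The widest falls included kinases that switch off pyruvate dehydrogenase: Pdk2 by 3.34 in day 4 isografts (SE 0.53, limma adjusted p = 7.86e-06) and Pdk4 by 3.07 in day 25 isografts (SE 0.84, adjusted p = 0.0126). Another kinase of the family, Pdk1, rose in allografts, by 0.91, 1.57 and 1.58 at days 4, 14 and 25 (SE 0.25, adjusted p = 0.00337, 4.65e-06 and 4.47e-06). Of 13 fatty acid oxidation genes, 11, 8 and 9 fell in isografts and 11, 7 and 5 in allografts (11 and 12 without the pair). Acadm, the medium-chain acyl-CoA dehydrogenase, fell by 2.82 in day 4 isografts (SE 0.64, adjusted p = 0.000638) and 3.07 in day 4 allografts (adjusted p = 0.00023). Cpt1a, the liver-type enzyme for fatty acid entry, rose by 1.07 and 1.12 there (SE 0.27, adjusted p = 0.00218 and 0.00136).

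Of 11 electron carriers and inner-membrane carriers, 3, 9 and 4 fell in isografts and 4, 5 and 4 in allografts (9 and 7 without the pair). Etfdh, which feeds electrons from fatty acid oxidation to ubiquinone, fell by 2.12 in day 4 isografts (SE 0.51, limma adjusted p = 0.00118). Of 13 genes for cytochrome oxidase assembly and copper delivery, 9, 7 and 4 fell in isografts and 7, 6 and 4 in allografts (9 and 9 without the pair), among them Atpaf2, which assembles the F1 head, by 1.33 in day 4 isografts (SE 0.37, adjusted p = 0.00445). Of 18 mitochondrial ribosome genes 4, 8 and 3 fell in isografts and 4, 4 and 4 in allografts (8 and 10 without the pair), with medians of -0.52 to -0.09. Of 12 biogenesis regulators, 3, 3 and 1 fell in isografts and 2, 3 and 2 in allografts (4 and 1 without the pair). With all arrays, the ribosome and regulator counts in day 4 isografts and in allografts were near or below the shares of all genes. So were the electron carrier count in day 4 isografts and the regulator count in day 25 isografts. Ppargc1a, the coactivator of mitochondrial biogenesis and also one of the brown adipocyte markers, fell by 1.49 in day 4 isografts and 1.76 in day 4 allografts (SE 0.36, adjusted p = 0.00111 and 0.000172). Nrf1, a transcription factor of nuclear respiratory genes, fell by 0.90 in day 14 isografts (SE 0.17, adjusted p = 0.000314) and 0.56 in day 4 allografts (adjusted p = 0.00816).

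Allografts were then set against isografts of the same day, which asks whether MHC-mismatched grafts differed from matched ones beyond transplantation. Strain was not given, so the MHC mismatch cannot be told apart from other strain differences between these groups. At day 4 limma called 0 members (0.469% of all genes higher, 0.0842% lower), with 0 at an unadjusted p under 0.05 and a median of -0.04. At day 14 it called 1 higher and 0 lower (10.8% and 10.5% of all genes), with 4 at an unadjusted p under 0.05 and a median of 0.25. At day 25 it called 1 higher and 1 lower (6.83% and 10.3%), with 8 at an unadjusted p under 0.05 and a median of 0.27. Without the pair of arrays the medians were 0.01 and -0.01, with 0 calls at day 14, and at day 25 there were 2 lower and 0 higher, Ndufaf3 and Cox8a. With only the groups compared in the fit, the day 14 call was 1 lower gene, Cox6a2 (-0.94, adjusted p = 0.0445), with Ndufa3 no longer called (0.73, adjusted p = 0.0663), and at day 25 Ndufaf3 was no longer called (adjusted p = 0.0766).

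**Figure D5:**
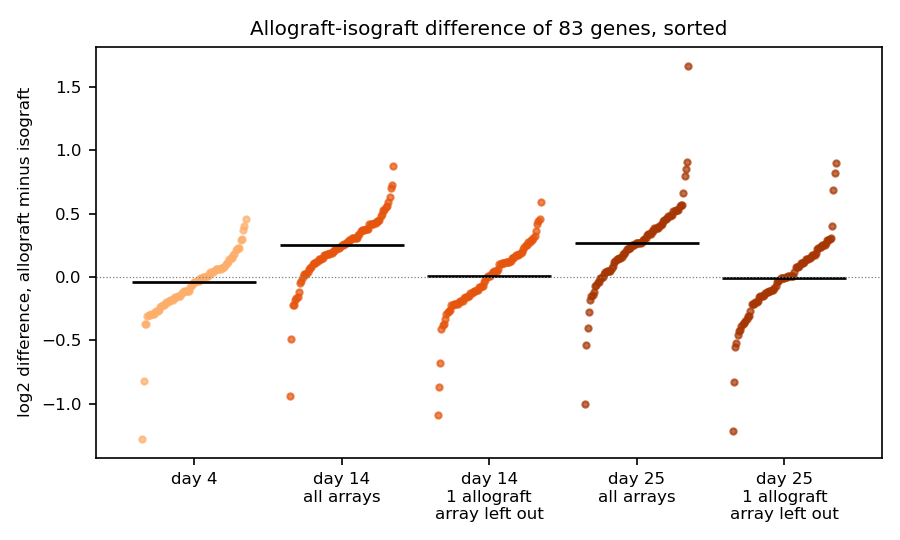
Allograft minus isograft log2 differences of the 83 genes, sorted within each panel, at day 4 and, at days 14 and 25, with all arrays and with 1 allograft array of the day left out. The curves at days 14 and 25 move from medians of 0.25 and 0.27 with all arrays to 0.01 and -0.01 without those arrays.

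Ndufa3, a small membrane-arm subunit of complex I, was at 11.41, 10.61, 11.26, 10.49 and 10.55 in day 14 allografts and at 10.34, 9.87, 10.55, 10.32 and 9.60 in day 14 isografts. The allografts were mostly higher, and the groups overlapped at one end. The difference was 0.73 (1.65-fold, 95% interval 0.23 to 1.22, SE 0.24, limma adjusted p = 0.0343), and 0.59 without the pair of arrays (adjusted p = 0.0844). Ndufaf3, a complex I assembly factor, was at 5.95, 6.83, 4.83, 6.42 and 5.79 in day 25 allografts and at 6.66, 6.83, 7.12, 6.93 and 7.28 in day 25 isografts. It was lower in allografts by a log2 difference of -1.0 (2-fold, 95% interval -1.60 to -0.40, SE 0.30, adjusted p = 0.0172), and -1.22 without the pair (adjusted p = 0.00228). Against native trachea, where it was at 6.93 to 7.29, Ndufaf3 fell by 1.17 in day 25 allografts (adjusted p = 0.00228) and was at -0.17 in day 25 isografts (adjusted p = 0.729).

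Sdhaf4 was at 7.58, 8.06, 7.25, 7.51 and 6.71 in day 25 allografts and at 6.58, 6.70, 6.45, 6.90 and 6.23 in day 25 isografts. In the allografts 4 of 5 arrays were above every isograft array. The difference was 0.85 (1.8-fold, SE 0.25, 95% interval 0.34 to 1.36, limma adjusted p = 0.0168), 0.69 without the pair (adjusted p = 0.0748), 0.62 with array weights (adjusted p = 0.0814) and 0.77 without native replicate 5 and day 25 isograft replicate 5 (adjusted p = 0.053). The widest uncalled differences belonged to the tissue-restricted forms, for which the intervals were broad: Cox7a1 had 1.67 at day 25 (95% interval -0.45 to 3.79), and 0.82 without the pair. Of the related pathways, Pdk1 was higher in allografts by 1.91 at day 14 and 1.60 at day 25 (SE 0.25, adjusted p = 5.52e-07 and 9.33e-06). Sco2, a copper chaperone for cytochrome oxidase, was lower, with -0.67 and -0.86 (SE 0.20, adjusted p = 0.0152 and 0.00183). Beside these, secretory epithelium markers were lower in allografts in 10 of 10 at day 14 and 10 of 10 at day 25. Leukocyte markers were higher in 8 and 6 of 8, or 8 and 7 without the pair. Their part in the 3 member differences was not tested.

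Few members changed between times within a kind of graft. From day 4 to day 14 in isografts 2 members rose and 0 fell (11.4% and 12.6% of all genes), with 3 at an unadjusted p under 0.05 and a median of 0.09. Cox7a2l, which helps join complexes III and IV into supercomplexes, was at 8.87, 8.56, 8.87, 8.75 and 8.97 at day 4 and at 8.98, 9.47, 9.63, 9.93 and 9.35 at day 14. The groups did not overlap, and Cox7a2l rose by 0.67 (SE 0.19, limma adjusted p = 0.00904). Ndufa13, a complex I subunit also known as GRIM-19, rose by 0.53 in isografts (SE 0.19, adjusted p = 0.0462).

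In allografts from day 4 to day 14, 2 members rose and 0 fell (3.66% and 5.27% of all genes), with 21 at an unadjusted p under 0.05 and a median of 0.39 that became 0.13 without the pair of arrays. Ndufa3 was at 10.01, 10.19, 9.88, 9.03 and 10.16 at day 4, below all day 14 allografts, and rose by 1.01 (SE 0.24, limma adjusted p = 0.007). Ndufa13 rose by 0.65 (adjusted p = 0.0302), and was at 0.53 without the pair (adjusted p = 0.0817). From day 14 to day 25 limma called 0 members in isografts (0% of all genes in either direction, 0 members at an unadjusted p under 0.05) and 0 in allografts (1.6% higher and 1.89% lower, 2 members at an unadjusted p under 0.05). The change of the allograft-isograft difference itself was called for 0 members from day 4 to day 14 (7.63% of all genes in either direction, 4 members at an unadjusted p under 0.05) and 0 from day 14 to day 25 (1.24%, 1 member).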

How the data were processed

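The deposited table held log2 values of 22690 probe sets, made by the authors with GCRMA 1.1.3, per the submitters' processing notes. GCRMA models and subtracts background, so low values and folds against them depend on it. Per the labels' protocols, total RNA came from a TRIzol extraction with a column clean-up, and biotin-labelled cRNA was hybridised. No further logarithm or pseudocount was applied. After 64 control probe sets were set aside, 13678 probe sets with log2 of at least 5 in at least 5 of 35 arrays were tested with limma 3.58.1 (lmFit and eBayes) in R 4.3.3, in one fit of 7 groups of 5 arrays with 28 residual degrees of freedom. P-values were adjusted by Benjamini and Hochberg over all tested probe sets. Where a gene had several probe sets, the one of highest mean over all arrays stood for it, and 8 probe sets naming several genes were set aside. The number of arrays limits the precision. The members, the lists and the named genes (up to 2 called rises and 2 falls per complex, a fixed core and the paralogue pairs) were chosen with earlier results of these data known. On simulated data 39% of 100 probe sets changed by -0.8 and 89% of 100 changed by -1.5 were recovered for day 4 isografts against native. No other probe set was changed there. In the real comparison 26.2% of genes were called lower and 20.2% higher, which alters the adjustment, so these rates do not carry over to it. Alternatives covered filters, variance model, array weights, scaling, samples in the fit, probe sets per gene and omitted arrays. Sequences came from RefSeq, matched by Entrez gene identifier for 87 of 87 members, with windows for 73. Python 3.11.15, pandas 2.3.3 and matplotlib 3.10.9 were used.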

Additional observations from a re-analysis of the deposited data

Results flagged for a closer look

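Single arrays were compared with the other 4 of their group by Dixon's ratio, the gap to the nearest array over the group's range, with a critical value of 0.71. The values examined were the member median and chosen genes, 31 items in each group, picked with results of these data known. Of 217 groups of values, 15 (6.91%) held such an array, where chance gives about 5% for unrelated values. Genes of an array can move together, and 5 of the 15 were in day 14 allograft replicate 1. The 2 percentages are therefore not a fair comparison. In native replicate 4, Ndufa9 was at 10.07 (others 9.10 to 9.38) and Atp5a1 at 11.82 (11.41 to 11.51). In day 4 isograft replicate 2, Cox7a1 was at 6.63 (3.50 to 3.86) and Cox8b at 8.23 (3.09 to 3.98). In day 4 allograft replicate 4, Ndufa9 was at 7.53 (8.27 to 8.49) and Ndufa3 at 9.03 (9.88 to 10.19), and in replicate 5 Ndufaf3 was at 6.56 (5.63 to 5.78).

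In day 14 allograft replicate 1 the median over the members was 0.44 (others -0.96 to -0.59), Ndufv1 was at 10.41 (7.79 to 8.52), Cox5b at 12.15 (10.77 to 10.96), Cox8a at 10.2 (8.66 to 9.03) and Atp5c1 at 11.21 (9.93 to 10.30). In day 25 allograft replicate 2, Uqcrc2 was at 13.71 (10.29 to 11.28) and Cox6b1 at 13.34 (11.26 to 11.77). In day 25 allograft replicate 1, Cox6a2 was at 10.21 (4.38 to 5.36).

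Allografts and isografts differed in limma's test for Ndufa3 at day 14 (0.73), Ndufaf3 at day 25 (-1.0) and Sdhaf4 at day 25 (0.85). Each call was lost under an alternative given above. Those of Ndufa3 and Sdhaf4 were lost without the pair of allograft arrays, and that of Ndufaf3 with only the groups compared in the fit. Over all genes, 10.8% were called higher and 10.5% lower at day 14, and 6.83% and 10.3% at day 25.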

How the results depend on the processing

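Of the named members, Uqcr10 alone turned in a called difference, with its probe sets averaged: 1.15 and 1.1 in day 14 and day 25 allografts against native, where the probe set used gave -0.78 and -0.87. The members' median kept its sign in each comparison with native trachea under the alternatives run. The median of allografts minus isografts at day 25 went from 0.27 to -0.01 without the pair, and medians of 0.02 or less in size between days 14 and 25 changed sign in several. Counts of called members in the comparisons with native trachea at day 4, and in isografts at days 14 and 25, stayed within 1.5 times of the reported count in each alternative other than the omission of single arrays. The cause was not tested for the counts that moved. For day 14 allografts against native (31), the count was 47 with array weights, 16 with only the groups compared in the fit and 48 without the pair of allograft arrays. For day 25 allografts against native (24), it was 43, 9 and 60. For allografts against isografts, the day 14 count (1) was 0 with repeated quantile normalization, 0 with reference-gene centring, 0 without the pair and 2 with probe sets averaged per gene, and the day 25 count (2) was 1 with array weights, 1 with only the groups compared and 1 without native replicate 5 and day 25 isograft replicate 5 together. From day 4 to day 14, the isograft count (2) was 1 with no filter and 4 without the pair. The allograft count (2) was 4 with array weights, 10 with reference-gene centring, 1 with only the groups compared, 5 with the mean of probe sets and 1 without the pair. The change of the allograft-isograft difference to day 14 (0) was 1 with the mean of probe sets.

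Leaving out 1 array at a time gave 41 to 55, 32 to 48 and 15 to 36 calls for isografts at days 4, 14 and 25 against native and 48 to 55, 15 to 46 and 8 to 56 for allografts, 0 to 1 and 1 to 3 for allografts against isografts at days 14 and 25, and 1 to 3 from day 4 to day 14 in both kinds of graft. With the replicate number as a block the isograft count from day 4 to day 14 was 1 in place of 2, and the other counts were within 1.5 times of those reported. Equal replicate numbers gave little sign of pairing arrays. Of 105 pairs of arrays sharing a number, 40 had deviations from their group means correlated above 0.1. The median was 0.04 (range -0.42 to 0.47), beside 0.01 for pairs with other numbers, and 7 arrays matched their own number best. Whether some arrays shared an animal or handling was not tested. Genes with values of about 3 to 5 lie near the background of GCRMA, which limits Cox7a1, Cox8b and Cox6a2 in grafts, and 5 arrays a group limit differences near -0.8.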
